A study of Mus musculus with 30 samples.

Results

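The comparison described here is that of Tbr1-null with wild-type mice in the parietal brain at postnatal day 0.5. Its members are the 8 arrays labelled as parietal at that stage, 4 of Tbr1 -/- tissue (KO) and 4 of wild-type tissue (WT), of 30 arrays in the series. All animals were of the CD1 strain, and null pups came from crosses of heterozygous parents, so the mutation was present in every cell from conception. The labels name the tissue only as parietal brain, and the other arrays hold E14.5 neocortex and frontal and occipital tissue of the same stage and genotypes. Each gene was represented by 1 probe set that names no other gene, and by the brightest of them where there were several, which gave 19938 genes. Values are log2 signals, on which a difference of 1 is a 2-fold difference, and differences are KO minus WT.

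Tbr1 is a T-box transcription factor of newly made glutamatergic neurons of the cerebral cortex. It is strongest in the earliest-born cells, which become subplate, Cajal-Retzius and layer 6 neurons, and layer 6 neurons send axons to the thalamus. In mice without it, layer 6 neurons are known to take on features of layer 5 neurons, which project to the brainstem and spinal cord, because Tbr1 normally represses the layer 5 regulator Fezf2. Parietal tissue of a newborn holds the future somatosensory cortex, between motor areas in front and visual areas behind.

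The 8 arrays had medians of 7.45 to 7.51. KO array 2 stood apart from the others, with a median correlation of 0.9882 with the other 7 arrays, where each other array had 0.9917 to 0.9939. Markers of 2 neighbouring tissues set WT array 1 apart. The mean log2 signal of 7 choroid plexus genes was 6.215 to 6.555 on KO arrays, 7.395 on WT array 1 and 6.405 to 6.491 on the other WT arrays, and that of 10 genes of meninges and fibroblasts was 7.29 to 7.35 on KO arrays, 8.14 on WT array 1 and 7.03 to 7.05 on the other WT arrays. Sex-linked signal was uneven as well. The mean of the Y-linked genes Eif2s3y, Uty and Kdm5d was 9.11, 5.42, 9.05 and 5.36 on KO arrays 1 to 4, against 9.04, 5.76, 9.18 and 9.25 on WT arrays 1 to 4. Xist, the RNA of the inactive X chromosome, was at 8.55, 12.38, 7.88 and 12.14 in KO and 5.80, 12.14, 8.65 and 5.98 in WT tissue, so that KO arrays 1 and 3 and WT array 3 had both Xist and Y-linked signal. The labels do not say whether a sample held tissue of more than 1 animal, so what a replicate stands for is not known. None of the 4 sex-linked genes was called between parietal groups. The part of these differences in the results was not tested, beyond leaving out each array and adding the Y-linked mean as a covariate, and a call that either ends is named as such. Nothing in the labels says that replicates were separate animals, so p-values measure the spread between samples. That spread was pooled over the frontal, parietal and occipital arrays of this stage, so it is not that of parietal arrays alone. Whether a gene was called therefore depends on scatter in the other regions too. In bulk tissue, fewer cells of a type and less RNA per cell cannot be told apart.

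Tbr1 itself was read at 9.65, 9.91, 9.49 and 9.72 in KO and 10.16, 10.14, 10.43 and 10.37 in WT tissue. The KO values were all under the WT values, with a log2 difference of -0.58 (SE 0.124, limma adjusted p = 0.00887), and a clear signal remained. Where the deletion lies relative to the probes is not known from the files, so this is only a partial check of the labels. The defining genes of dorsal cortex were detected in both genotypes. Emx1, a transcription factor of cortical progenitors, averaged 8.42 ± 0.17 in KO and 8.55 ± 0.07 in WT tissue (SD, n = 4 each), Neurod2, a factor of cortical projection neurons, averaged 10.23 ± 0.05 in KO and 10.16 ± 0.10 in WT tissue, and neither was called (limma adjusted p = 0.79 and 0.92). Lhx2, Emx2, Bcl11b, Neurod6 and the vesicular glutamate transporter Slc17a7 were not called either, so that Tbr1 was the only called gene of the 8 measured in this list. Neurod6, another factor of projection neurons, had 11.29, 11.72, 11.26 and 11.25 in KO and 11.37, 11.66, 11.99 and 11.73 in WT tissue (adjusted p = 0.181), and it was called in the fits without KO array 2 or WT array 1.

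Between KO and WT parietal tissue 361 of 19938 genes were called at a limma adjusted p under 0.05 (1.81%), 212 of them higher (1.06%) and 149 lower (0.747%) in KO tissue. The median change of the called genes was 1.42-fold. In 16 genes signal was at least 2-fold higher in KO tissue and in 15 at least 2-fold lower. The values of the 4 KO and 4 WT arrays did not overlap in 342 of the 361 called genes, against 7.41% of all genes. Calls and overlap rest on the same values, so this count is not separate evidence for the calls. The median log2 difference over all genes was -0.01. Leaving out 1 array at a time gave 237 calls without KO array 4, the fewest, and 357 without KO array 3, the most, and 326 without KO array 2 and 302 without WT array 1. In all 8 of these fits 196 of the 361 genes were called (116 higher, 80 lower). With the Y-linked mean as a covariate 293 genes were called, 285 of them among the 361, and all 361 kept their sign.

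**Figure D1:**
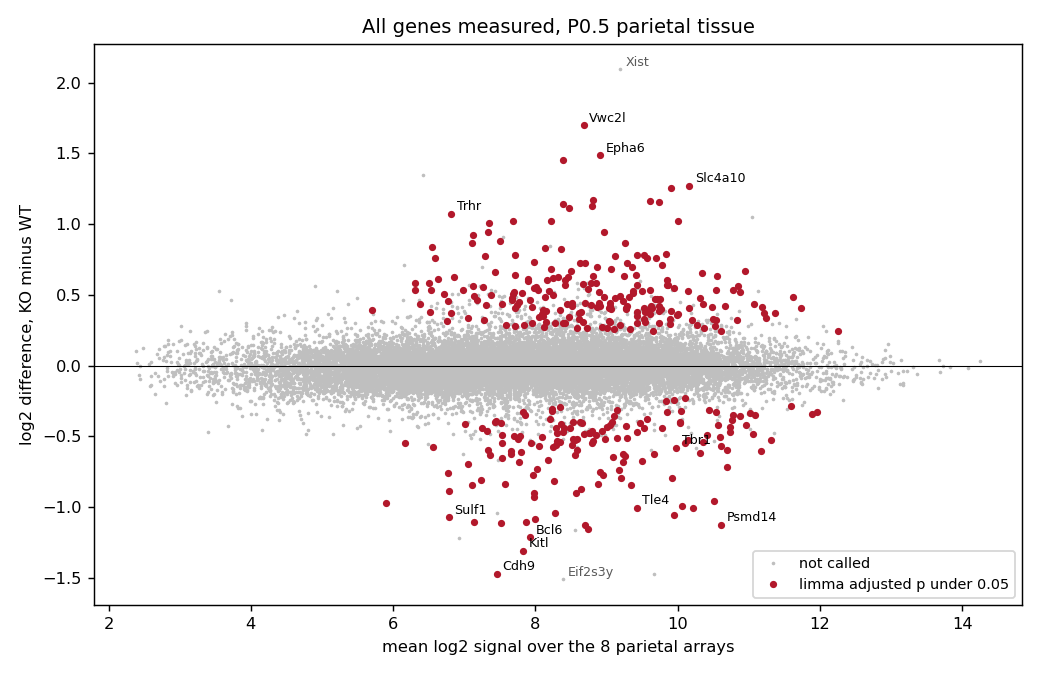
Log2 difference (KO minus WT, vertical axis) against the mean log2 signal over the 8 parietal arrays (horizontal axis) for each of 19938 genes, with the 361 called genes in red. Called genes reach from -1.47 (Cdh9) to 1.70 (Vwc2l), while the sex-linked Xist and Eif2s3y, far from 0 as well, are not called.

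The 12 largest rises and 12 largest falls were taken from called genes whose KO and WT values did not overlap. Lack of overlap in these genes therefore follows from that rule. Among called genes the largest rise was in Vwc2l, which encodes a secreted protein with a von Willebrand factor C domain that acts on bone morphogenetic protein signalling. It was at 9.47, 9.68, 9.32 and 9.65 in KO and 7.70, 8.05, 7.64 and 7.94 in WT tissue. No KO array came near a WT array, and the log2 difference of 1.70 (SE 0.173, limma adjusted p = 1.08e-06) is a 3.25-fold increase. Epha6, an Eph receptor that guides axons through contact with ephrins, had 9.52, 9.82, 9.57 and 9.71 in KO and 8.26, 8.25, 7.98 and 8.17 in WT tissue. Its rise of 1.49 (SE 0.128, adjusted p = 1.12e-07) was again far larger than the spread within a genotype. Neurod1, a basic helix-loop-helix factor that drives neuronal differentiation, had 9.01, 9.50, 8.74 and 9.18 in KO and 7.22, 7.68, 8.20 and 7.54 in WT tissue. The groups did not overlap, but WT array 3 lay nearest to the KO values, and the SE was wider (difference 1.45, SE 0.273, adjusted p = 0.0025). It was the only called gene of 9 neuronal bHLH factors, whose median was -0.05. Without KO array 2 or WT array 1, 1 of them was called lower.

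Structural proteins of mature axons were among the rises. Nefl, the light chain of the filaments that fill mature axons, had 10.41, 10.52, 10.45 and 10.77 in KO and 9.24, 9.53, 9.13 and 9.23 in WT tissue. Nefm, the medium chain, had 10.21, 10.29, 10.10 and 10.16 in KO and 9.14, 9.09, 8.91 and 8.96 in WT tissue. Each was more than 2-fold higher (2.38-fold and 2.24-fold) on tight replicates, with limma adjusted p of 1.84e-06 and 1.4e-07. Tuba4a, an alpha-tubulin of mature neurons, stood with them at 9.53, 9.41, 9.39 and 9.24 in KO and 8.46, 8.38, 7.87 and 8.17 in WT tissue, a log2 difference of 1.17 (SE 0.133, adjusted p = 4.58e-06). Of the 7 intermediate filament genes measured 2 were called, both higher, with a list median of 0.11. Nefh, Ina, Prph, Vim and Nes were the 5 not called, and Tuba4a was the only called gene of 10 tubulins.

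Further rises were in molecules of the cell surface or matrix. Flrt3, a membrane protein that binds Unc5 receptors and latrophilins, had 9.31, 9.66, 9.13 and 9.31 in KO and 8.37, 8.17, 8.29 and 8.08 in WT tissue, a log2 difference of 1.13 (SE 0.113, limma adjusted p = 9.27e-07). Egfem1, a protein with EGF-like repeats, had 9.03, 9.11, 8.93 and 9.06 in KO and 8.16, 8.09, 7.58 and 7.86 in WT tissue (difference 1.11, SE 0.133). Fn1, the matrix protein fibronectin, had 10.02, 10.28, 10.37 and 10.60 in KO and 9.50, 8.89, 9.07 and 9.19 in WT tissue, with a difference of 1.16 and adjusted p = 0.00536. In each of the 3 the lowest KO array was above the highest WT array, by the smallest margin in Fn1, where WT array 1, which carried most meningeal signal, was the highest of its group. Zfp521, a zinc finger factor, had 8.92, 9.29, 8.79 and 8.86 in KO and 8.003, 7.84, 7.82 and 7.64 in WT tissue (difference 1.14). Trhr, the receptor of thyrotropin-releasing hormone, had 6.93, 7.82, 7.42 and 7.26 in KO and 6.35, 6.32, 6.39 and 6.07 in WT tissue (difference 1.07, adjusted p = 0.00013), and KO array 2 was its highest.

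Among called genes the largest fall was in Cdh9, a classical cadherin that mediates adhesion at chosen synapses. It had 6.74, 7.26, 6.28 and 6.62 in KO and 8.26, 8.21, 8.12 and 8.20 in WT tissue. WT arrays lay close together while KO arrays spread more widely, with KO array 2 highest, and the log2 difference was -1.47 (SE 0.215, limma adjusted p = 0.000133), a 2.77-fold decrease. Kitl, the ligand of the Kit receptor, had 6.75, 7.29, 7.39 and 7.25 in KO and 8.45, 8.39, 8.74 and 8.35 in WT tissue (difference -1.31, SE 0.239, adjusted p = 0.00192). Bcl6, a transcriptional repressor that promotes neuronal differentiation in the cortex, had 7.43, 7.39, 7.27 and 7.19 in KO and 8.65, 8.19, 8.70 and 8.59 in WT tissue (difference -1.21, SE 0.161, adjusted p = 3.81e-05). In both genes the highest KO array lay well below the lowest WT array.

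Several other falls were of the same size. Mctp1, a calcium-binding membrane protein, had 7.89, 8.33, 8.09 and 8.35 in KO and 8.93, 9.53, 9.42 and 9.40 in WT tissue (difference -1.16). Arhgap29, a GTPase-activating protein, had 7.91, 8.25, 7.97 and 8.40 in KO and 9.29, 9.16, 9.35 and 9.23 in WT tissue (difference -1.13). Cryab, a small heat shock protein, had 7.50, 7.03, 7.41 and 7.34 in KO and 8.69, 8.17, 8.22 and 8.62 in WT tissue (difference -1.11). By the rule for the largest changes, the KO and WT ranges of these 3 genes did not overlap. Has2, which makes the matrix sugar hyaluronan, had 6.68, 6.79, 6.398 and 6.50 in KO and 7.65, 7.83, 7.63 and 7.67 in WT tissue (difference -1.10, SE 0.189, limma adjusted p = 0.000931). Kcnh1, a voltage-gated potassium channel, had 7.36, 7.36, 7.48 and 7.60 in KO and 8.66, 8.53, 8.35 and 8.61 in WT tissue (difference -1.09, SE 0.176, adjusted p = 0.000477). The calls of all 24 genes in the lists of largest rises and falls held in each of the 8 fits that left out 1 array and with the Y-linked covariate.

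**Figure D2:**
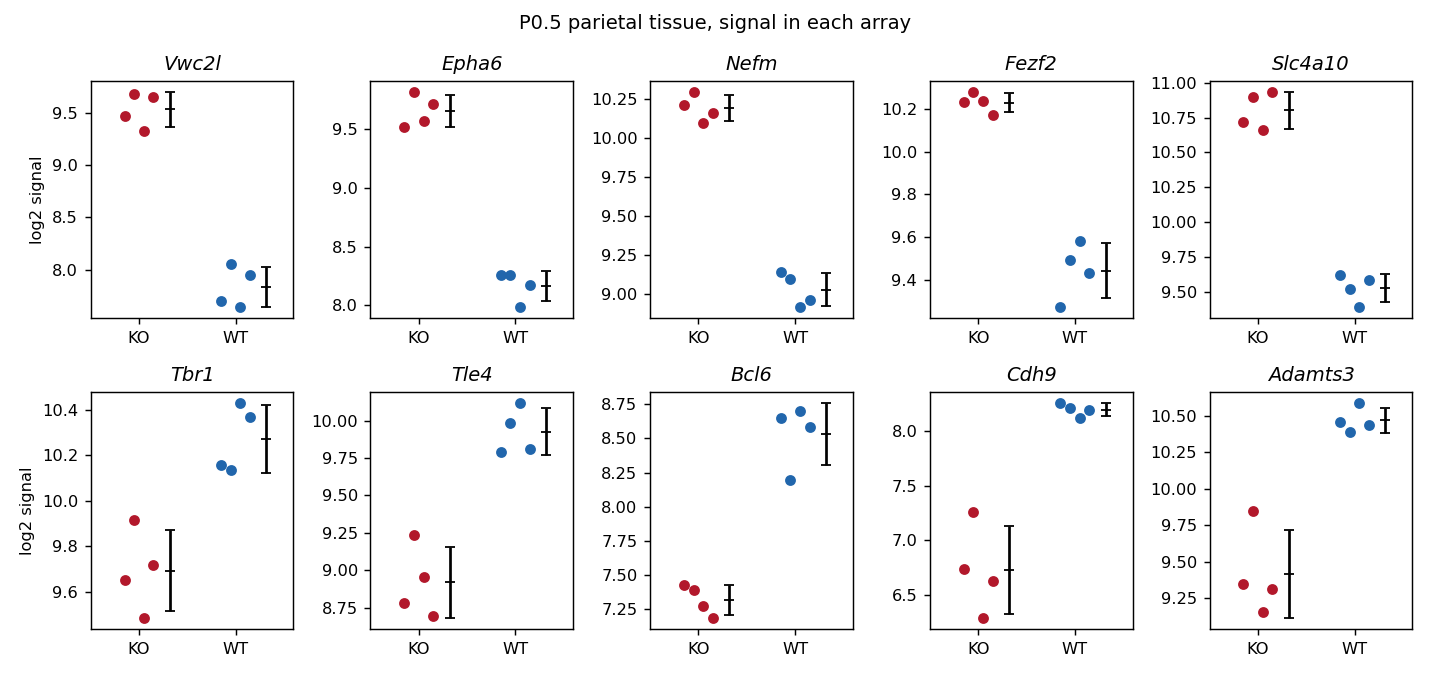
Log2 signal of 10 genes in each of the 4 KO (red, left) and 4 WT (blue, right) parietal arrays, with the mean ± SD as bars. KO points lie above all WT points in the upper row and below them in the lower row, where KO array 2 is the highest KO point for Tbr1, Tle4, Cdh9 and Adamts3.

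Genes of layer 6 corticothalamic neurons were called lower more often than higher in KO tissue, and the called genes of layer 5 subcerebral neurons were all higher. Of 11 layer 6 genes 5 fell (Tbr1, Tle4, Sox5, Syt6 and Hs3st4) and 1 rose (Thsd7b), with a median log2 difference of -0.27, where 1.81% of all genes were called and their median was -0.01. That share and that median are the reference for the counts and medians of all other lists. Tle4, a Groucho-type corepressor of layer 6 neurons, had 8.78, 9.24, 8.96 and 8.70 in KO and 9.79, 9.98, 10.12 and 9.81 in WT tissue. It was 2.01-fold lower (difference -1.01, SE 0.100, limma adjusted p = 9.27e-07), the largest fall of the list, with no overlap. Syt6, a synaptotagmin of vesicle traffic, had 7.73, 7.87, 8.01 and 7.77 in KO and 8.48, 8.36, 8.21 and 8.34 in WT tissue (difference -0.50), and Hs3st4, a heparan sulfate sulfotransferase, had 9.13, 8.88, 9.02 and 9.12 in KO and 9.47, 9.36, 9.64 and 9.74 in WT tissue (difference -0.51). Sox5, a regulator of the order in which deep neurons acquire their fates, had 9.86, 9.96, 9.91 and 9.82 in KO and 10.38, 10.33, 10.50 and 10.45 in WT tissue (difference -0.53, adjusted p = 0.0254). Without KO arrays 1 or 4 or WT arrays 1, 3 or 4 the call of Sox5 was lost (limma adjusted p up to 0.0956), and also with the Y-linked covariate (adjusted p = 0.0513). Thsd7b, a membrane protein with thrombospondin repeats, went the other way, with 8.30, 8.14, 8.10 and 8.26 in KO and 7.84, 7.58, 7.31 and 7.62 in WT tissue (difference 0.61, adjusted p = 0.000853).

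Of 11 layer 5 genes 4 rose and 0 fell, with a median of 0.26. Fezf2, the zinc finger factor that specifies subcerebral neurons, had 10.23, 10.28, 10.24 and 10.17 in KO and 9.27, 9.49, 9.58 and 9.43 in WT tissue. All 4 KO values lay close together and far above the WT values, a 1.73-fold increase (difference 0.79, SE 0.0995, limma adjusted p = 1.96e-05). Etv1, an ETS factor of layer 5 neurons, had 9.78, 10.004, 9.99 and 10.01 in KO and 9.23, 9.22, 9.16 and 9.11 in WT tissue (difference 0.76, adjusted p = 2.58e-05), and both of its probe sets were higher in KO tissue. Crim1, a membrane protein that marks corticospinal neurons, had 10.24, 10.14, 10.41 and 10.11 in KO and 9.76, 9.69, 9.68 and 9.58 in WT tissue (difference 0.55), and Crym, a thyroid hormone binding protein of the same neurons, had 9.12, 8.81, 9.19 and 8.92 in KO and 8.46, 8.51, 8.45 and 8.43 in WT tissue (difference 0.54). No value of these 4 genes overlapped between genotypes, and their calls held in all fits that left out 1 array. Bcl11b, which acts downstream of Fezf2 in subcerebral neurons, had 9.92, 9.90, 10.12 and 10.07 in KO and 9.97, 9.80, 9.68 and 9.70 in WT tissue and was not called (difference 0.22, adjusted p = 0.441).

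Among the other early-born neurons, 2 of 12 genes of the subplate and layer 6b fell and 0 rose (median -0.27). Drd1, a dopamine receptor present in layer 6b and striatum, had 7.90, 7.49, 7.76 and 7.89 in KO and 8.93, 8.89, 8.77 and 8.63 in WT tissue, a log2 difference of -1.04 (SE 0.111, limma adjusted p = 1.7e-06) without overlap. Nxph4, a neurexin ligand of subplate cells, had 7.26, 7.02, 7.44 and 7.44 in KO and 7.87, 7.59, 7.89 and 7.76 in WT tissue (difference -0.49, adjusted p = 0.0144). Leaving out KO array 2 or WT arrays 1 or 3 ended the call of Nxph4 (limma adjusted p up to 0.0703). Of 10 genes of Cajal-Retzius and marginal zone cells 1 fell (Reln) and 0 rose, with a median of -0.26. Of 13 upper layer genes 1 fell and 0 rose, with a median of -0.07. This was Rorb, a nuclear receptor of layer 4 neurons, with 8.74, 8.98, 8.87 and 9.07 in KO and 9.85, 9.74, 9.72 and 9.74 in WT tissue (difference -0.85, adjusted p = 0.0246). Rorb was no longer called without KO arrays 1 or 3 or WT arrays 1, 2, 3 or 4 (limma adjusted p up to 0.0909).

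The reelin pathway tells migrating neurons where to stop. Reln itself, the secreted signal of Cajal-Retzius cells, had 9.90, 10.004, 10.03 and 10.09 in KO and 10.54, 10.74, 10.65 and 10.57 in WT tissue, a log2 difference of -0.62 (SE 0.118, limma adjusted p = 0.0027) with no overlap. Lrp8, a reelin receptor, had 10.33, 10.30, 10.50 and 10.38 in KO and 10.72, 10.65, 10.76 and 10.69 in WT tissue (difference -0.32, adjusted p = 0.00709). Adamts3, the metalloprotease that cuts reelin and so inactivates it, had 9.35, 9.85, 9.15 and 9.31 in KO and 10.46, 10.39, 10.59 and 10.44 in WT tissue (difference -1.06, adjusted p = 0.000138), and its 16 probe sets differed by -1.10 to -0.73. The ligand, a receptor and a protease of the pathway were thus lower together, while the other 11 of 14 measured members were not called, and the list median was 0.01.

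**Figure D3:**
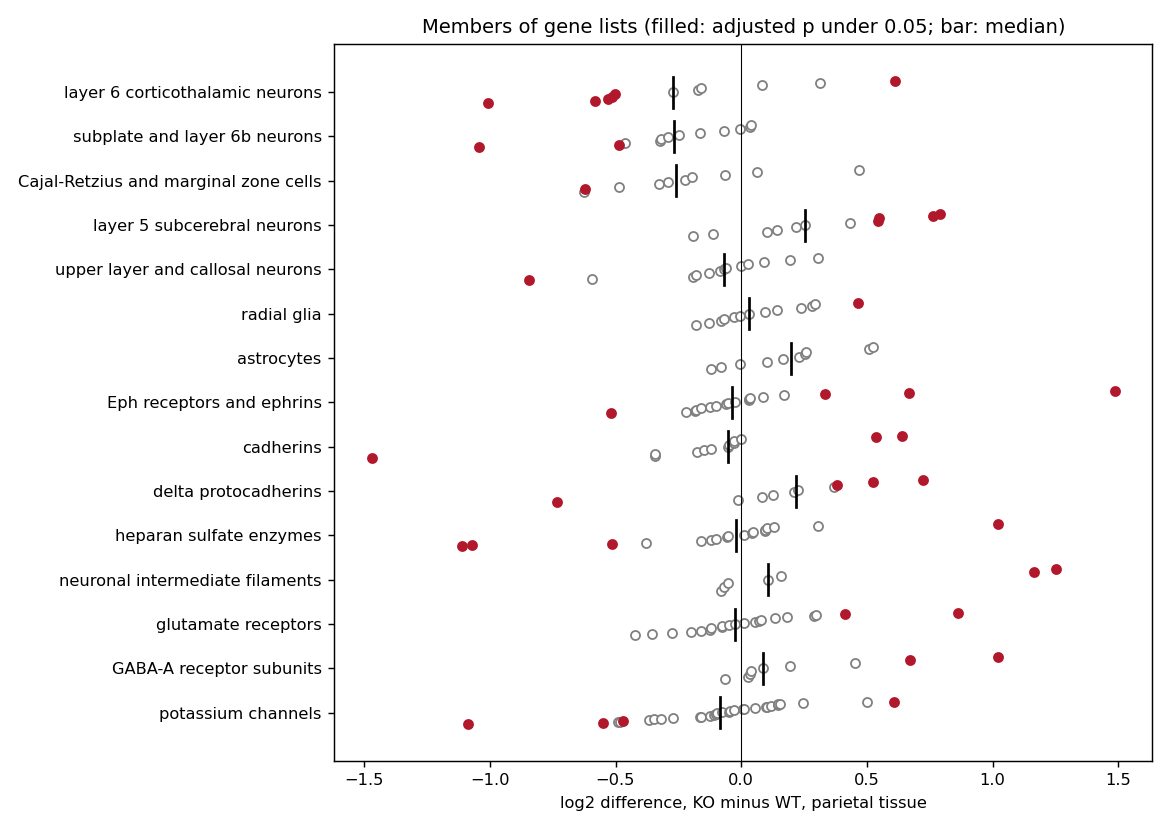
Log2 difference (KO minus WT) of each measured member of 15 gene lists, filled where limma adjusted p was under 0.05, with the list median as a bar. Filled points lie mainly to the left for layer 6 and to the right for layer 5, and on both sides for cadherins and heparan sulfate enzymes.

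Genes of axon guidance and adhesion were called in both directions, where 1.81% of all genes were called. Of 18 Eph receptors and ephrins 3 rose (Epha6, Epha7 and Epha5) and 1 fell (Ephb1), with a median of -0.04. Epha7 had 11.16, 11.44, 11.21 and 11.33 in KO and 10.68, 10.76, 10.56 and 10.47 in WT tissue (difference 0.67, limma adjusted p = 0.000131), and Ephb1 had 8.62, 8.81, 8.71 and 8.71 in KO and 9.16, 9.37, 9.17 and 9.22 in WT tissue (difference -0.52, adjusted p = 0.00858), each without overlap. Epha5 had 10.64, 10.68, 10.49 and 10.83 in KO and 10.24, 10.38, 10.42 and 10.27 in WT tissue (difference 0.33, adjusted p = 0.0174). The call of Epha5 was lost without KO array 4 or WT arrays 1 or 4 (limma adjusted p up to 0.109).

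Of 21 semaphorins, plexins and neuropilins 2 fell and 1 rose, with a median of -0.05. Sema7a, a membrane-anchored semaphorin that promotes axon growth, had 10.17, 10.08, 10.29 and 10.14 in KO and 10.67, 10.72, 10.62 and 10.63 in WT tissue (difference -0.49, limma adjusted p = 0.0027), with closely spaced WT arrays all above KO arrays. Plxna2, a semaphorin receptor, differed by -0.34 (adjusted p = 0.0151), and Sema6d, a transmembrane semaphorin, by 0.40 (adjusted p = 0.0275), where KO array 1 lay among the WT arrays. Without KO array 1 or WT arrays 1 or 3 the call of Plxna2 was lost (limma adjusted p up to 0.0883). Leaving out KO arrays 2, 3 or 4 or WT arrays 3 or 4 ended the call of Sema6d (limma adjusted p up to 0.128), and also with the Y-linked covariate (adjusted p = 0.0719). Of 15 slits, robos, netrins and their receptors 1 rose, the repellent Slit2, at 8.38, 8.70, 8.48 and 8.69 in KO and 7.96, 7.90, 7.77 and 7.90 in WT tissue (difference 0.68, adjusted p = 0.0267). Slit2 was no longer called without KO arrays 2 or 4 or WT arrays 2, 3 or 4 (limma adjusted p up to 0.103), and also with the Y-linked covariate (adjusted p = 0.0656).

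Of 13 classical cadherins 2 rose and 1, Cdh9, fell. Cdh7 had 7.83, 8.11, 7.95 and 8.26 in KO and 7.41, 7.41, 7.33 and 7.42 in WT tissue (difference 0.64, limma adjusted p = 0.00265) and Cdh8 had 10.96, 11.16, 11.06 and 11.001 in KO and 10.58, 10.57, 10.49 and 10.39 in WT tissue (difference 0.54, adjusted p = 0.0104). Both lay above WT on every KO array, opposite to Cdh9. The call of Cdh8 was lost without WT array 4 (limma adjusted p = 0.0513). Of 10 delta protocadherins 3 rose and 1 fell, with a median of 0.22. Pcdh19 had 9.52, 9.57, 9.73 and 9.69 in KO and 9.18, 9.19, 8.98 and 9.06 in WT tissue (difference 0.52, adjusted p = 0.00133) and Pcdh11x had 8.99, 8.92, 8.78 and 9.29 in KO and 8.47, 8.35, 8.03 and 8.23 in WT tissue (difference 0.72, adjusted p = 0.00396). Pcdh8 differed by 0.38 (adjusted p = 0.0278) and Pcdh20 by -0.73 (adjusted p = 0.0357), on non-overlapping values. Without KO arrays 2 or 4 or WT arrays 1 or 4 the call of Pcdh8 was lost (limma adjusted p up to 0.119), and also with the Y-linked covariate (adjusted p = 0.0714). Leaving out any 1 of the 8 arrays ended the call of Pcdh20 (limma adjusted p up to 0.127), and also with the Y-linked covariate (adjusted p = 0.051).

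Among 11 contactins and relatives, adhesion proteins of axons, Cntn5 rose and Cntn2 fell, with a list median of 0.26. Cntn5 had 9.23, 9.27, 9.21 and 9.33 in KO and 8.75, 8.90, 8.77 and 8.87 in WT tissue (difference 0.44, limma adjusted p = 0.00218). Cntn2, the axonal glycoprotein TAG-1, had 10.15, 10.30, 10.64 and 10.25 in KO and 10.93, 10.98, 11.31 and 10.98 in WT tissue (difference -0.71, adjusted p = 0.00367). The 2 genes moved apart, each without overlap, and WT array 3 was the highest for Cntn2.

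Enzymes that build or trim heparan sulfate, the sugar chain that holds growth factors at the cell surface, showed the same mix: of 18 measured 3 fell and 1 rose, with a median of -0.02. Hs3st5, a sulfotransferase, had 7.04, 6.89, 6.86 and 7.04 in KO and 7.997, 8.13, 8.27 and 7.87 in WT tissue (difference -1.11, limma adjusted p = 0.000131). Sulf1, a sulfatase that removes sulfate from finished chains, had 6.27, 6.03, 6.24 and 6.45 in KO and 7.30, 7.36, 7.34 and 7.28 in WT tissue (difference -1.07, adjusted p = 2.58e-05). Ndst3, which acts early in sulfation, rose, with 8.54, 8.95, 8.69 and 8.78 in KO and 7.62, 7.81, 7.92 and 7.51 in WT tissue (difference 1.02, adjusted p = 3.35e-06). WT arrays of Sulf1 were nearly equal, and none of the 3 genes had overlapping groups. Hs3st4, described with layer 6, was the third of the falls.

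The called genes of the glutamate receptor and GABA-A subunit lists were all higher in KO tissue. Of 21 glutamate receptor genes 2 rose and 0 fell (median -0.03), and of 9 GABA-A subunits 2 rose and 0 fell (median 0.09). Of all genes 1.06% were called higher and 0.747% lower. In the fits without WT array 3 or WT array 4, 1 glutamate receptor gene was called lower. Grin3a, an NMDA receptor subunit that lowers calcium flow, had 9.50, 9.65, 9.92 and 9.72 in KO and 8.87, 8.91, 8.62 and 8.93 in WT tissue (difference 0.86, limma adjusted p = 5.92e-05), and Gria4, an AMPA receptor subunit, had 10.56, 10.90, 10.55 and 10.73 in KO and 10.20, 10.32, 10.34 and 10.22 in WT tissue (difference 0.41, adjusted p = 0.00205). Gabrg1 had 8.13, 8.53, 7.96 and 8.15 in KO and 7.02, 7.57, 6.85 and 7.24 in WT tissue (difference 1.02, adjusted p = 0.00195) and Gabrg3 had 8.60, 8.88, 8.98 and 8.89 in KO and 8.50, 8.26, 7.75 and 8.15 in WT tissue (difference 0.67, adjusted p = 0.00449). KO lay above WT on every array in all 4 genes, by the smallest margin for Gabrg3.

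Of 24 voltage-gated sodium and calcium channel genes 2 rose and 0 fell (median 0.03). Scn1a, a sodium channel of fast-firing neurons, had 8.83, 8.90, 8.41 and 8.95 in KO and 8.11, 8.23, 8.14 and 8.11 in WT tissue (difference 0.63, limma adjusted p = 0.0115), and Scn9a, which lies near it on the chromosome, had 8.39, 8.49, 8.41 and 8.53 in KO and 7.98, 7.999, 7.87 and 7.86 in WT tissue (difference 0.53, adjusted p = 0.000939). Scn1a was no longer called without KO array 4 (limma adjusted p = 0.0623). Of 32 potassium channel genes and their partners 3 fell (Kcnh1, Kcnh5 and Kcnip2) and 1 rose (Kcnd2), with a median of -0.09. Without WT array 4, 1 of the 3 falls was called. Kcnd2, which carries the fast transient current of dendrites, had 9.99, 10.16, 10.15 and 10.33 in KO and 9.66, 9.67, 9.36 and 9.50 in WT tissue (difference 0.61, adjusted p = 0.00259). Kcnip2, whose protein binds Kcnd2 channels, had 8.13, 8.08, 8.13 and 8.25 in KO and 8.62, 8.60, 8.56 and 8.70 in WT tissue (difference -0.47, adjusted p = 0.0153), so that channel and partner moved in opposite directions. The call of Kcnip2 was lost without WT array 4 (limma adjusted p = 0.0629). Kcnh5, a relative of Kcnh1, differed by -0.55 (adjusted p = 0.0334). Without KO arrays 1, 3 or 4 or WT arrays 1, 2 or 4 the call of Kcnh5 was lost (limma adjusted p up to 0.135).

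Ptprn, a membrane protein of dense-core vesicles, which store peptides, had 9.47, 9.23, 9.65 and 9.39 in KO and 8.73, 8.43, 8.36 and 8.46 in WT tissue, a rise of 0.94 (SE 0.119, limma adjusted p = 1.96e-05) on groups that did not overlap. It was the only called gene of 14 in its list. Cck, the peptide cholecystokinin, had 9.31, 9.86, 9.88 and 9.22 in KO and 10.53, 10.69, 10.44 and 10.56 in WT tissue (difference -0.99, SE 0.227, adjusted p = 0.0159), and was the only called gene of 16 neuropeptides. Leaving out KO arrays 1 or 4 or WT array 2 ended the call of Cck (limma adjusted p up to 0.0865).

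Genes listed for graded expression along the cortex were called in both directions. Of 14 genes listed as stronger in rostral cortex 4 rose (Etv1, Epha7, Cdh8 and Lmo4) and 1 fell (Etv5), with a median of 0.02. Without WT array 4, 2 of the 4 rises were called. Of 10 listed as stronger caudally 2 rose (Crym and Tenm3) and 1 fell (Lmo3), with a median of 0.10. Mean WT signal in frontal, parietal and occipital tissue was 9.10, 9.18 and 9.29 for Etv1 and 10.51, 10.51 and 10.57 for Cdh8. In the same order it was 10.59, 10.62 and 10.62 for Epha7 and 10.57, 10.77 and 10.36 for Lmo3. These genes thus did not follow their list in WT tissue. Etv5 (9.07, 8.93 and 8.48), Tenm3 (9.93, 10.85 and 11.48) and Crym (8.45, 8.46 and 8.71) did. Etv5, an ETS factor induced by fibroblast growth factors, had 8.42, 8.53, 8.57 and 8.27 in KO and 8.80, 8.91, 9.08 and 8.93 in WT tissue (difference -0.48, limma adjusted p = 0.0417). Etv5 was no longer called without KO arrays 1, 2 or 4 or WT arrays 2, 3 or 4 (limma adjusted p up to 0.177), and also with the Y-linked covariate (adjusted p = 0.073). Tenm3, a teneurin that matches projections between areas, had 11.19, 11.23, 11.35 and 11.37 in KO and 10.94, 11.04, 10.62 and 10.78 in WT tissue (difference 0.44, adjusted p = 0.0258). The call of Tenm3 was lost without KO arrays 3 or 4 or WT arrays 3 or 4 (limma adjusted p up to 0.14), and also with the Y-linked covariate (adjusted p = 0.0642). Lmo3, a LIM-only cofactor, had 10.27, 10.58, 10.11 and 10.45 in KO and 10.66, 10.77, 10.87 and 10.79 in WT tissue (difference -0.42, adjusted p = 0.0246), without overlap. Without KO arrays 1 or 3 or WT arrays 2, 3 or 4 the call of Lmo3 was lost (limma adjusted p up to 0.113).

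Lists of other cell types and tissues held 0 to 2 called genes each, where 1.81% of all genes were called. At that share a list of this size would often hold none, so its lack of calls says little about a cell type. None was called of 11 genes of intermediate progenitors, the dividing cells that make neurons, of 12 of interneurons, 10 of astrocytes, 10 of microglia, 12 of blood vessels, 10 of meninges, 7 of choroid plexus, 9 of thalamus or 2 of red blood cells. Of 13 radial glia genes 1 rose, Hes1, the Notch effector, with 8.13, 8.35, 7.94 and 8.22 in KO and 7.58, 7.65, 7.84 and 7.70 in WT tissue (difference 0.47, limma adjusted p = 0.0281). Leaving out KO arrays 1, 2 or 4 or WT arrays 1, 2 or 4 ended the call of Hes1 (limma adjusted p up to 0.107), and also with the Y-linked covariate (adjusted p = 0.0609). Without WT array 3, 2 of the 13 were called. Of 9 oligodendrocyte genes 1 rose, Mbp, the myelin basic protein, with 8.25, 8.11, 8.38 and 8.32 in KO and 8.15, 7.93, 7.93 and 7.95 in WT tissue and WT array 1 inside the KO range (difference 0.27, adjusted p = 0.0332). Mbp was no longer called without KO arrays 1, 3 or 4 or WT arrays 2, 3 or 4 (limma adjusted p up to 0.128). The array means of the 10 astrocyte genes were 8.09 to 8.33 in KO and 7.90 to 8.20 in WT tissue, with a median difference of 0.20, and Aqp4, their water channel, had 7.91, 8.06, 7.84 and 8.40 in KO and 7.75, 7.65, 7.36 and 7.42 in WT tissue (adjusted p = 0.257). Sstr2, a somatostatin receptor of newborn neurons listed with intermediate progenitors, had 8.42, 8.63, 8.62 and 8.50 in KO and 8.96, 8.96, 9.17 and 8.95 in WT tissue (difference -0.47, adjusted p = 0.252), and Kdr, the receptor of vascular growth factor on endothelium, had 7.65, 7.87, 7.84 and 7.48 in KO and 8.49, 8.18, 8.25 and 8.09 in WT tissue (difference -0.54, adjusted p = 0.537), lower on every KO array but not called. The parietal SDs of Kdr were 0.18 in KO and 0.17 in WT tissue, while its SE, pooled over the regions, was 0.264. The 10 microglia genes averaged 7.42 to 7.58 in KO and 7.31 to 7.41 in WT tissue, with a median difference of 0.14. Of 9 hippocampal genes 1 rose (Nr3c2, the mineralocorticoid receptor, difference 0.55, adjusted p = 0.0124), 1 of 8 olfactory bulb genes rose (Etv1), and of 10 striatal genes 2 fell, Drd1 and Ppp1r1b. Ppp1r1b, the phosphatase regulator DARPP-32, which layer 6 also makes, had 8.21, 7.82, 8.10 and 8.13 in KO and 8.63, 8.32, 8.65 and 8.43 in WT tissue (difference -0.44, adjusted p = 0.0273). The call of Ppp1r1b was lost without KO arrays 2 or 4 or WT arrays 1 or 3 (limma adjusted p up to 0.126), and also with the Y-linked covariate (adjusted p = 0.0719).

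None of the 15 measured genes of cell division was called. Each had a log2 difference below 0, with a median of -0.16, where 54.3% of all genes were below 0. Their mean signal was 7.84, 8.33, 8.05 and 7.89 on KO arrays and 8.11, 8.12, 8.400 and 8.10 on WT arrays, so that KO array 2 lay inside the WT range. The one with the smallest p was Rrm2, a subunit of the enzyme that makes deoxyribonucleotides, with 8.33, 8.89, 8.42 and 8.39 in KO and 8.66, 8.71, 9.005 and 8.71 in WT tissue (limma adjusted p = 0.295). It was called in the fit without KO array 2, whose value lay inside the WT range. Of 13 immediate early genes and 13 cholesterol synthesis genes none was called, and the medians were near 0 and at -0.14.

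The parietal calls were set against those of the other regions. In the same fit 1499 genes (7.52%) were called in frontal and 267 (1.34%) in occipital tissue. Of the 361 parietal genes 280 were also called in frontal tissue, 279 of them in the same direction, which is 77.6% of the parietal and 18.7% of the frontal genes. With occipital tissue 121 were shared, all in the same direction, which is 33.5% of the parietal and 45.3% of the occipital genes. All 3 regions shared 103 genes (58 higher, 45 lower), and 63 were called in parietal tissue and in neither other region. Sex-linked signal ran with genotype in frontal tissue, where the Y-linked mean was 5.09 to 5.99 on KO and 8.99 to 9.15 on WT arrays and Xist was at least 11.96 on KO and at most 6.39 on WT arrays, so that in frontal tissue the 2 cannot be told apart. In occipital tissue the Y-linked mean was 5.88 to 9.32 on KO and 9.20 to 9.44 on WT arrays. With the Y-linked mean as a covariate 247 genes were called in frontal tissue (1.24%), with a median SE of 0.13 against 0.0962 without it. Of the 293 parietal genes called in that fit 116 were also called in frontal tissue, all in the same direction, which is 39.6% of the parietal and 47.0% of the frontal genes. Over the 361 genes the median log2 change, taken in the parietal direction, was 0.50 in parietal, 0.48 in frontal and 0.28 in occipital tissue. The arrays of the 3 regions differ, but the labels do not say whether same-numbered samples came from 1 animal.

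The size of the change was tested between regions in the same model. The parietal and frontal differences were unlike in 2 of 19938 genes (0.01% called) and the parietal and occipital ones in 2 (0.01%), with 1620 and 784 genes at an unadjusted p under 0.05. Lmo4, a LIM-only cofactor patterned along the cortex, on parietal arrays had 11.84, 11.94, 11.84 and 11.84 in KO and 11.53, 11.45, 11.21 and 11.33 in WT tissue, while frontal arrays were at 11.49, 11.23, 10.73 and 11.15 in KO and 11.80, 11.92, 11.27 and 11.92 in WT tissue. The difference was thus 0.48 in parietal and -0.58 in frontal tissue, apart by 1.06 (SE 0.181, limma adjusted p = 0.037). Fst, follistatin, which binds activins, on parietal arrays had 9.20, 9.39, 8.86 and 8.78 in KO and 8.44, 8.17, 8.27 and 8.43 in WT tissue, a difference of 0.73 against 1.64 in frontal tissue, apart by -0.91 (SE 0.15, adjusted p = 0.037). Egfem1 differed by 1.11 in parietal and -0.09 in occipital tissue, apart by 1.20 (SE 0.188, adjusted p = 0.0143). Ndnf, a secreted protein of marginal zone cells, on parietal arrays had 8.53, 8.78, 8.04 and 9.21 in KO and 8.10, 8.33, 8.21 and 8.05 in WT tissue (difference 0.47, adjusted p = 0.458), while occipital arrays were at 7.73, 7.32, 7.59 and 7.46 in KO and 8.45, 9.24, 9.08 and 8.87 in WT tissue, apart by 1.85 (SE 0.297, adjusted p = 0.0143).

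These 4 differences between regions rested on few arrays. With the Y-linked covariate Lmo4 and Fst no longer differed between parietal and frontal tissue (limma adjusted p = 0.152 for both), while Egfem1 and Ndnf still differed between parietal and occipital tissue (0.0133 for both). That of Lmo4 missed the threshold in 13 of the 16 fits that left out 1 of the arrays compared (adjusted p up to 0.159), each parietal array among them, and that of Fst in 10 of 16 (up to 0.127). That of Egfem1 was lost in 3, without KO parietal array 2, WT parietal array 4 or WT occipital array 2, and that of Ndnf in 5, without these or KO occipital array 2 or WT occipital array 3 (adjusted p up to 0.0653 for both). The parietal call of Lmo4 itself (adjusted p = 0.0465) was lost in most fits. Without KO arrays 1, 2, 3 or 4 or WT arrays 2, 3 or 4 the call of Lmo4 was lost (limma adjusted p up to 0.185), and also with the Y-linked covariate (adjusted p = 0.0883).

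**Figure D4:**
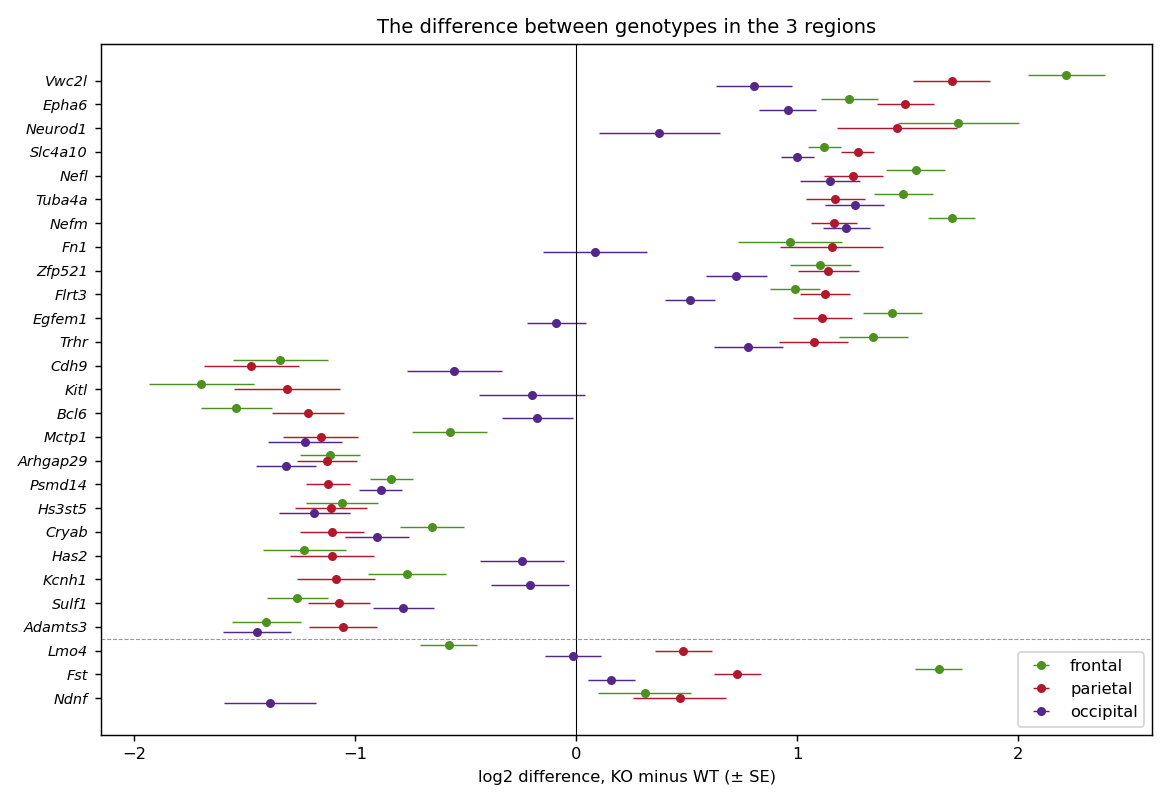
Log2 difference (KO minus WT, ± SE, horizontal axis) of the 12 largest parietal rises and 12 largest falls, and of 3 genes that differed between regions (under the dashed line), in frontal, parietal and occipital tissue. Most parietal and frontal points lie close together, while occipital points of Neurod1, Fn1, Egfem1, Kitl, Bcl6, Has2 and Kcnh1 lie nearer to 0.

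Many of the largest parietal changes were small in occipital tissue, though the difference between these regions passed the test only in Egfem1 among the 24. Bcl6 differed by -1.21 in parietal, -1.54 in frontal and -0.18 in occipital tissue (parietal minus occipital, adjusted p = 0.373). Kitl differed by -1.31, -1.70 and -0.20 in the same order (adjusted p = 0.819), and Neurod1 by 1.45, 1.73 and 0.38 (adjusted p = 1.00). Slc4a10, Nefl, Nefm, Tuba4a, Arhgap29, Hs3st5 and Adamts3 changed by at least 1 log2 unit in every region in the same direction. Of the 63 genes called in parietal tissue alone, Gria4 differed by 0.04 in frontal and 0.08 in occipital tissue, and Lmo3 by -0.03 and -0.05. Neither differed between parietal and frontal tissue by the test (adjusted p = 0.427 and 0.563), so a change particular to parietal tissue was not shown for them.

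The genes that flank Tbr1 on chromosome 2 were among those that changed most. Slc4a10, the next measured gene on one side, encodes a sodium-dependent bicarbonate transporter of neurons. It had 10.72, 10.90, 10.66 and 10.93 in KO and 9.62, 9.52, 9.39 and 9.58 in WT tissue, the smallest p of all genes (difference 1.27, SE 0.0738, limma adjusted p = 2.77e-11). Psmd14, the next on the other side, encodes a deubiquitinase of the proteasome lid, and had 10.17, 10.24, 9.79 and 9.99 in KO and 10.95, 11.19, 11.34 and 11.21 in WT tissue (difference -1.12, SE 0.0991, adjusted p = 1.24e-07). The 2 neighbours moved in opposite directions. Among the 25 measured genes on each side of Tbr1 9 of 50 were called, where 1.81% of all genes were. The others were Fap, Ifih1, Scn1a, Scn9a and B3galt1, which rose, and Ermn and Acvr1, which fell, and the median difference of the 50 was 0.08. Dpp4 and Tank, the second genes on each side, were not called (differences 0.37 and 0.23). Over the whole of chromosome 2, 37 of 1732 genes were called (2.14%), within the range of the other autosomes (1.18% to 2.43%). Leaving out KO arrays 2 or 4 or WT arrays 2 or 4 ended the call of Fap (limma adjusted p up to 0.0855). Acvr1 was no longer called without KO arrays 1 or 4 or WT arrays 1, 2, 3 or 4 (limma adjusted p up to 0.11).

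**Figure D5:**
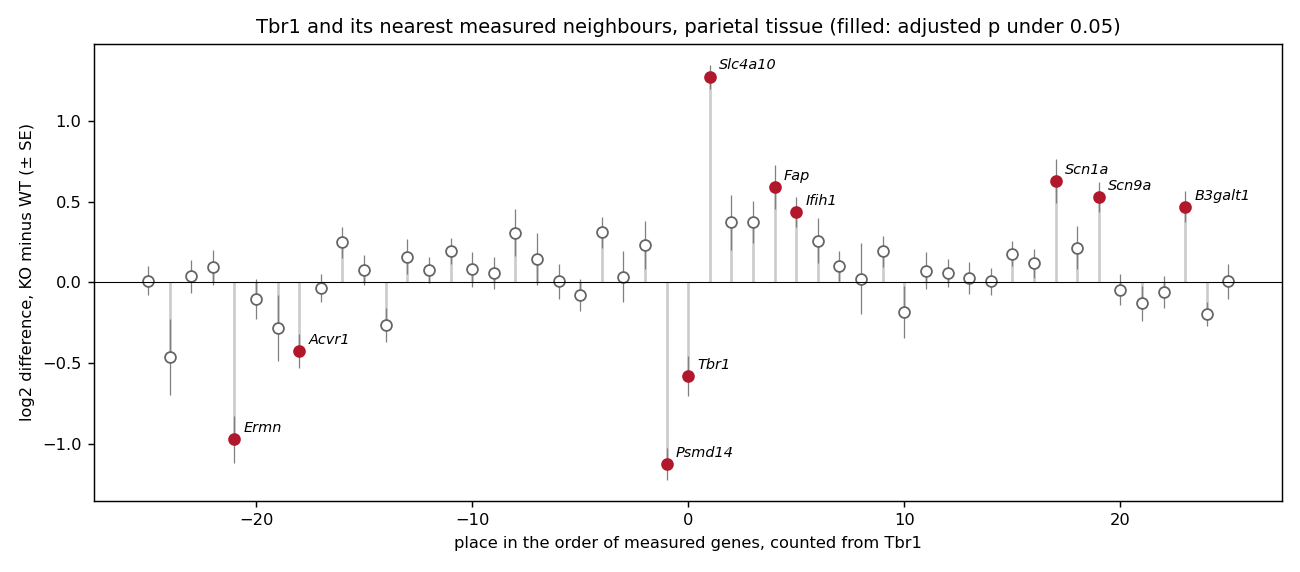
Log2 difference (KO minus WT, ± SE) of Tbr1 and the 25 measured genes on each side of it, in the order in which they lie on chromosome 2, filled where limma adjusted p was under 0.05. Psmd14 and Slc4a10, next to Tbr1, are farther from 0 than Tbr1 itself.

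T-box factors bind DNA at the letters AGGTGTGA, of which GGTGTG is the core. These were searched on both strands (as TCACACCT and CACACC on the other) in RefSeq promoter windows of 300 bases on GRCm38.p6, most of them upstream of each gene's start, where 163 of the 212 genes called higher and 121 of the 149 called lower had a window. The 8 letters were in 1 of 221 windows of genes called higher (0.452%), in 3 of 176 of genes called lower (1.71%) and in 210 of 19115 of all measured genes (1.1%). The core was in 19.5%, 21.0% and 18.8%. The longer letters always hold the core. The shares of called genes therefore lay near those of all genes, in few windows. The window of Lmo3, the named gene with the full letters, and 1 of the 2 windows of Slc4a10, the neighbour of Tbr1 with the smallest p, are shown 5′ to 3′ on the strand of the gene, with the letters in capitals. Lmo3 lies on the minus strand at chr6:138581919-138582218, where the letters end shortly before the start, and Slc4a10 on the plus strand at chr2:62046265-62046564. The other window of Slc4a10, at chr2:62147628-62147927, holds neither the 8 letters nor the core.
Lmo3: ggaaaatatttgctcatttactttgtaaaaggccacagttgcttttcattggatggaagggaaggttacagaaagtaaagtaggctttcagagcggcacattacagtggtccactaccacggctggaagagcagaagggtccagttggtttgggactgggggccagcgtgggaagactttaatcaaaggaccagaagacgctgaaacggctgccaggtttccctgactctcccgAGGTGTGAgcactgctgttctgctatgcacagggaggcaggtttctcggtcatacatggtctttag
Slc4a10: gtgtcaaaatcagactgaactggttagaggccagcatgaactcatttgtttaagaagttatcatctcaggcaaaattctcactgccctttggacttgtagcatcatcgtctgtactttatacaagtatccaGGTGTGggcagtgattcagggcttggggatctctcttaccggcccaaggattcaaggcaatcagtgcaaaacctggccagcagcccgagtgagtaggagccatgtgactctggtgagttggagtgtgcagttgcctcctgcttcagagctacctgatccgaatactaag
A match of letters is a description of the window, not a site of binding, and windows were not tested against expression.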

How the data were processed

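RNA of 8 parietal samples (4 KO, 4 WT) was read on Affymetrix arrays, within a table of 24 P0.5 arrays. The deposited values are signals per probe set on a log2 scale, and per the submitters' processing notes Affymetrix Expression Console 1.1 and RMA were used, with the role and order of each not stated. The genome build behind them is not given in the sources used here. Array medians lay between 7.42 and 7.52 over the 24 arrays and signals between 1.77 and 14.6, which fits a common log2 scale, and values were not normalised again or filtered on brightness. Precision depends on the number of arrays. The E14.5 table was left out.

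Of 35557 probe sets, 21789 name 1 gene, 1621 several and 12147 none, per the platform annotation, and only those with 1 gene were used. The brightest probe set over the 24 arrays stood for each of 19938 genes, of which 999 had more than 1. Entrez identifiers matched a RefSeq gene table for 21698 probe sets, and 0 symbols changed.

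Differences were fitted with limma 3.58.1 (R 4.3.3, lmFit and eBayes with an intensity trend, two-sided, 18 residual degrees of freedom) in 1 model of 24 arrays in 6 groups, with contrasts for parietal KO minus WT and for its difference from the frontal and occipital ones. Called genes had a p under 0.05 after Benjamini-Hochberg adjustment over the 19938 genes. On simulated data of 19938 genes for the parietal comparison, 77 of 100 genes changed by 0.5 log2 units and 100 of 100 changed by 1.0 were recovered. The simulated noise was normal and independent between genes, without outlying arrays or uneven sex-linked signal. These counts therefore do not measure recovery on the real arrays.

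The 43 gene lists (522 entries, 485 measured), like the comparison itself, were chosen with earlier results of these data known, and lists are described by counts and medians with no test. The rule for named genes took Tbr1, the 12 largest rises and the 12 largest falls among called genes without overlap, up to 4 called members of each list by p (or the 1 of smallest p), the called genes of the 2 contrasts between regions, up to 5 each way, and all members of the sex-linked and dorsal cortex lists. Sox5, the neighbours of Tbr1 and the genes of the closing observations were named after their values were seen. The other listed genes without values were named only as list members.

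Groups share replicate numbers. Deviations of same-numbered KO and WT parietal arrays correlated at 0.247, 0.353, -0.21 and -0.0175, so the numbers were not treated as pairs. Same-numbered parietal and occipital arrays correlated at 0.276, 0.208, 0.164 and 0.124 in WT but at -0.317 to 0.0129 in KO, and the parietal minus occipital count was 2 with the number as a block. Alternatives were probe set means per gene, a filter on the dimmest 30%, subtracted array medians, no trend, a minimum of 1.5-fold, array weights, only the arrays compared, the replicate number as a block, the Y-linked mean as a covariate, and leaving out each array.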

Additional observations from a re-analysis of the deposited data

Results flagged for a closer look

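Of 196 groups of 4 values (98 named genes in 2 genotypes) 15 held an array far from the other 3 by Dixon's criterion, which flags about 1 group in 20 by chance. Among KO arrays, replicate 2 stood apart for Neurod6 (11.72), Lmo4 (11.94), Rrm2 (8.888) and Slc4a1 (6.895), and replicate 1 for Etv1 (9.776). Among WT arrays, replicate 1 stood apart for Mbp (8.146), Lum (6.458) and Npy (11.14), replicate 3 for Sstr2 (9.173), Cdh7 (7.326), Cntn2 (11.31) and Rrm2 (9.005), and replicate 2 for the Y-linked Eif2s3y (6.125), Uty (5.37) and Kdm5d (5.79). Lum, a proteoglycan of meninges, was at 7.12, 7.33, 6.74 and 7.17 in KO and 6.46, 5.52, 5.51 and 5.50 in WT tissue and was not called (limma adjusted p = 0.276). WT replicate 1 was also the array with the highest means of choroid plexus and meningeal genes.

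Between regions, the KO minus WT difference of the parietal tissue departed from that of another region in 4 genes by the interaction test of limma. It exceeded the occipital one by 1.201 for Egfem1 and by 1.853 for Ndnf, exceeded the frontal one by 1.062 for Lmo4, and was below the frontal one for Fst (-0.9114). The difference lost its call without 1 array in 3, 5, 13 and 10 of 16 fits, in that order of genes, and for Lmo4 and Fst also with the Y-linked covariate (adjusted p = 0.152 for both).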

How the results depend on the processing

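The parietal count of 361 was 373 with probe set means, 417 without the dimmest 30% of genes, 336 with array medians subtracted, 337 without a trend, 415 with only the 8 arrays, and 293 with the Y-linked covariate (165 higher, 128 lower). It was 1241 with array weights (654 higher, 587 lower) and 122 with a minimum of 1.5-fold (64 higher, 58 lower), which removes small changes by construction. The cause of the higher count was not tested. Without 1 array it was 237 to 357 (higher 134 to 215, lower 100 to 154). With the replicate number as a block in the 8 arrays it was 359 (188 higher, 171 lower), and with a random block over the 24 arrays 361. Of the same-numbered KO and WT arrays 2 of 4 pairs correlated best with their own number. The parietal minus frontal count of 2 was 0 with medians subtracted, without a trend, with the covariate and with only the arrays compared, 1 with the replicate block, 47 with array weights and 0 to 6 without 1 array. The parietal minus occipital count of 2 was 4 with only the arrays compared, 2 with the replicate block, 17 with array weights and 0 to 6 without 1 array. No named gene changed its direction where it was called in either fit. Uty and Kdm5d, which were not called and are part of the Y-linked covariate, changed sign with it. Uty went from -1.04 to 0.04 and Kdm5d from -0.67 to 0.14. Of 74 called named genes 54 were called in all 8 fits without 1 array. Dim probe sets near background limit folds, which understate changes there.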

Other observations

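Other genes outside the lists were called lower in KO tissue. Nfia, a nuclear factor I protein that controls the switch of progenitors to glia, had log2 signals of 9.70, 10.32, 10.18 and 9.95 in KO and 10.99, 10.93, 11.23 and 10.81 in WT tissue, a difference of -0.96 (SE 0.132, limma adjusted p = 6.36e-05). Its relative Nfib differed by -0.34 (adjusted p = 0.0498), a call lost without KO arrays 1, 3 or 4 or WT arrays 2 or 3 (adjusted p up to 0.269) and with the Y-linked covariate (adjusted p = 0.0623), and the other 2 of the 4 nuclear factor I genes were not called. Tgfbr1, the kinase receptor of transforming growth factor beta, had 9.66, 9.72, 9.91 and 9.56 in KO and 10.66, 10.65, 10.87 and 10.71 in WT tissue, a difference of -1.01 (SE 0.138, adjusted p = 5.92e-05). Of the 8 Smad genes measured 2 fell (Smad3 by 0.44 and Smad5 by 0.32 on the log2 scale), and none of the 8 was called higher, where 0.747% of all genes were called lower. The call of Smad3 was lost without KO arrays 2 or 4 or WT arrays 1 or 3 (limma adjusted p up to 0.074) and that of Smad5 without KO arrays 1, 3 or 4 or WT arrays 2 or 3 (up to 0.137). Wnt7b, a secreted Wnt ligand of deep cortical neurons, had 7.87, 7.92, 7.76 and 7.85 in KO and 8.63, 8.52, 8.86 and 8.65 in WT tissue (difference -0.82, adjusted p = 2.06e-04).

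Fgf10, a fibroblast growth factor, had 7.75, 7.96, 7.89 and 7.80 in KO and 6.89, 6.86, 6.84 and 6.78 in WT tissue, a rise of 1.01 (SE 0.104, limma adjusted p = 1.2e-06), and of 22 Fgf ligands measured Fgf18 was the other one called (0.31). Of all genes 1.06% were called higher. The call of Fgf18 held in 1 of the 8 fits that left out an array, that without WT array 1, and was lost with the Y-linked covariate (adjusted p = 0.062). Met, the receptor of hepatocyte growth factor, had 10.54, 10.72, 10.20 and 10.59 in KO and 9.62, 9.78, 9.18 and 9.38 in WT tissue (difference 1.02, adjusted p = 0.001). Of 14 serotonin receptor genes 2 fell and 0 rose, where 0.747% of all genes were called lower. Of the 14, 7 had a difference above 0, and the median was -0.02. Htr1f had 7.32, 6.94, 7.11 and 7.27 in KO and 8.03, 8.09, 7.89 and 7.96 in WT tissue (difference -0.83, adjusted p = 2.65e-04), and Htr2a differed by -0.58 (adjusted p = 0.00887). Chrna7, a nicotinic receptor subunit, differed by -0.75 (adjusted p = 0.00269).

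Subunits of the proteasome, the complex that degrades tagged proteins, were called in both directions. Of 39 measured genes with Psma, Psmb, Psmc or Psmd symbols 6 rose (Psmd1, Psmd11, Psmd4, Psma1, Psmc2 and Psmc1, by 0.26 to 0.41) and Psmd14 fell. A difference above 0 was seen in 31 of the 39, with a median of 0.19, where 1.06% of all genes were called higher and 45.7% were above 0. Psmd1, a base subunit, had 11.44, 11.47, 11.28 and 11.41 in KO and 11.09, 10.998, 10.99 and 11.02 in WT tissue (difference 0.37, limma adjusted p = 0.00135). The number that rose was 3 without KO array 1, KO array 4, WT array 1, WT array 2 or WT array 3, 10 without KO array 3, and 3 with the Y-linked covariate (Psma1, Psmc2 and Psmc1 were lost), and Psmd14 was called lower in each of the 8 fits. These families were picked after their values were seen, so their counts are descriptions.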
